A study of Saccharomyces cerevisiae with 63 samples.

Results

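The outer kinetochore is the protein layer that ties a chromosome's centromere to the spindle. The mRNA of 9 budding yeast genes that encode it was followed through meiosis: NDC80, NUF2, SPC24 and SPC25 (the Ndc80 complex), MTW1, DSN1, NSL1 and NNF1 (the Mtw1 complex), and SPC105. The members were the rows of the deposited gene table that carry these names, 9 of 6088 genes. NDC80 is listed there under its alias TID3 and was matched by its systematic name. Polyadenylated RNA was sequenced from diploid SK1 yeast of 3 strains, each with 3 biological replicates at 7 times, giving 63 libraries. The strains were WT, an ime4 mutant and a pho92 mutant, and the labels do not describe the lesion of either mutant further. All 3 strains carry pCUP-IME1, a copper-inducible promoter in front of the master regulator of meiotic entry, so WT here is not an unmodified strain. Cells were moved to acetate sporulation medium at 0 h, received 50 µM copper sulfate at 2 h, and were sampled at 0, 2, 3, 5, 6, 7 and 9 h.

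The rod-shaped Ndc80 complex binds microtubules through Ndc80 and Nuf2 and joins the kinetochore through Spc24 and Spc25. The Mtw1 complex links the inner kinetochore to the Ndc80 complex, and Spc105 is the scaffold on which spindle checkpoint proteins assemble. Meiotic prophase in yeast is known for a reshaped kinetochore: the outer layer is shed and then rebuilt before the first division. NDC80 is also known for an extended transcript made in meiotic prophase from an upstream start, which is poorly translated into Ndc80 protein and whose transcription represses the shorter coding mRNA. The counts used here give 1 value per gene, so an extended and a coding transcript cannot be separated, and an NDC80 level below is not a level of coding mRNA or of protein. Ime4 is the enzyme that places N6-methyladenosine on yeast meiotic mRNA, and Pho92 is a protein that binds it.

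Positions are those of the S288C reference, build R64, in which all 9 genes start and end where the table puts them. NDC80 (YIL144W) is at chrIX:78074-80149, NUF2 (YOL069W) at chrXV:198942-200297, SPC24 (YMR117C) at chrXIII:501250-501891 and SPC25 (YER018C) at chrV:191959-192624. MTW1 (YAL034W-A) is at chrI:79718-80587, DSN1 (YIR010W) at chrIX:375431-377161, NSL1 (YPL233W) at chrXVI:106172-106822, NNF1 (YJR112W) at chrX:637030-637635 and SPC105 (YGL093W) at chrVII:334886-337639. No other gene of the table overlaps any of them.

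Short motifs known from early and middle meiotic genes were looked up in the 600 bases before each start codon, on both strands. The MSE, the site of the middle-gene activator Ndt80, was searched in 4 spellings. These were CACAAAA with its variant ending in T, and CGCAAAA with its variant ending in T. It was found before 4 of 9 members, against 35.6% of 6005 such windows in the genome. The URS1 core GGCGGCT, the site of the early-gene regulator Ume6, was found before 0 of 9, against 5.0% of windows. The MCB letters ACGCGT, a site of G1/S gene regulation, were found before 1 of 9, against 6.3%. These are all the matches, 5′ to 3′ on the gene's own strand from the R64 genome with the motif in capitals, shown so that they can be read beside the time courses. A missing match says only that these letters are not in that window, and the SK1 sequence was not used.
NDC80, MSE, 187 bases before the start codon, chrIX:77871-77897, + strand: atgatatagtCACAAAActaatatttc
SPC25, MSE, 133 bases before the start codon, chrV:192747-192773, - strand: acgcggaaagCGCAAATttcctcgaag
DSN1, MSE, 128 bases before the start codon, chrIX:375287-375313, + strand: agcaaaaattCACAAATgataaacaaa
DSN1, MSE, 22 bases before the start codon, chrIX:375393-375419, + strand: ttgtaccacaCACAAATttttctttat
NSL1, MSE, 510 bases before the start codon, chrXVI:105646-105672, + strand: gctgcttttaCGCAAAAgaacacatct
MTW1, MCB, 101 bases before the start codon, chrI:79601-79628, + strand: atttttatagtACGCGTaaacaaaaaag

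Libraries held 12826747 to 33048881 counted reads, with a median of 16834032. Levels are CPM, read counts divided by library size and put on a common scale, after TMM scaling, a method that sets library sizes so that most genes do not change. The TMM factor is low where a few genes take up much of a library: it was 0.387 to 0.412 in WT at 7 h and 1.366 to 1.378 in WT at 3 h. The choice of scale therefore changed some calls, and a change that turned direction when libraries were scaled by total counts alone is named as such. Percentages of all genes called are those of edgeR with TMM scaling. They are not the background of member counts given for total counts or another setting, for which no share is given. The targeted genes checked the labels: IME4 was at most 2.374 CPM in every ime4 library against at least 37.35 in every WT library, and PHO92 was at most 4.265 CPM in every pho92 library against at least 115 in every WT library from 2 h on. NDT80, which encodes the activator of the middle meiotic genes, marked the stage. It reached 6196, 5617 and 4459 CPM in WT at 6 h, but 389, 302 and 604 CPM in ime4 and 2172, 1152 and 669 CPM in pho92. IME1, the gene under the copper promoter, was already at 1695 to 2824 CPM in WT at 0 h. It was at 3496, 3407 and 3382 CPM in WT at 2 h and 3467, 2660.0 and 2056 at 3 h. Early meiotic markers (5 genes) summed to 58.9 to 214 CPM in WT at 0 h. At 2 h they summed to 1174 to 2307 CPM in WT, 237 to 789 in ime4 and 429 to 2177 in pho92. Some libraries of 1 group differed in NDT80: WT replicate 1 at 5 h had 1662 CPM beside 815 and 606, and pho92 replicate 3 at 7 h had 2305 beside 3886 and 3919. Haploid cell markers (12 genes, none at 0 in any group) summed to 68.6 to 78.0 CPM in WT at 0 h and to 1332 to 1677 at 7 h, and in ime4 to 305 to 428 at 7 h. Mitotic cycle markers (10 genes, none at 0) summed to 682 to 802 CPM in WT at 0 h. They were lower at 3 h, at 230 to 274 CPM, and summed to 5064 to 5864 in WT at 7 h and to 378 to 643 in ime4 at 7 h. Both sums moved with the late rise of the members described below, and so did that of the middle meiotic markers (5 genes). The middle markers summed to 272 to 362 CPM in WT at 3 h and 38500 to 39540 at 7 h, and to 1558 to 4771 in ime4 at 7 h. The part of these genes in the members' rise was not tested. A sum does not show whether its genes moved alike, so neither the haploid nor the mitotic sum counts such cells. In bulk RNA, fewer cells at a stage and less RNA per cell cannot be told apart.

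**Figure D1:**
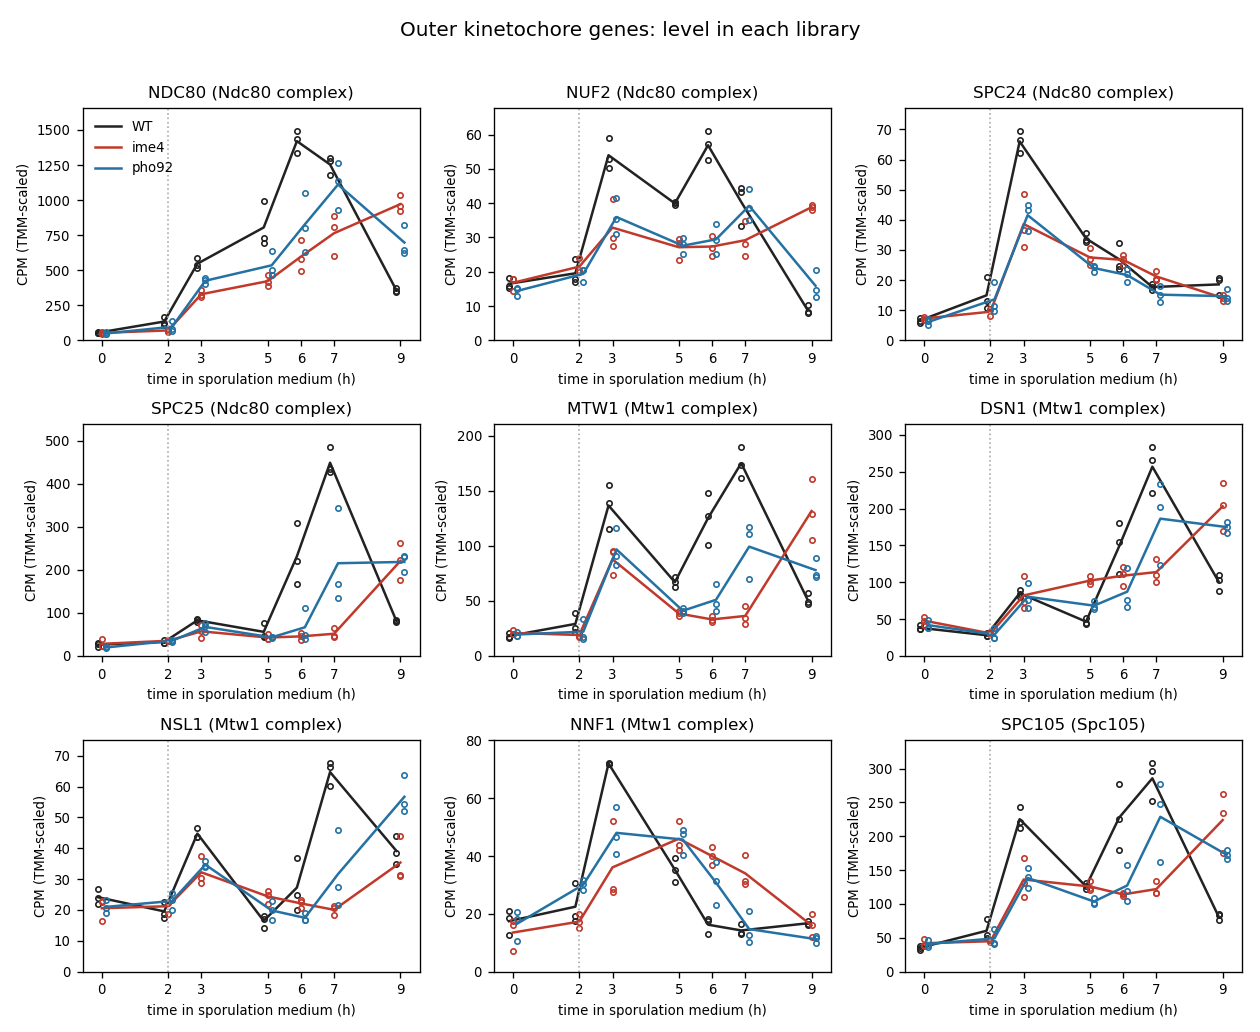
CPM of each of the 9 members (1 panel each, linear axis from 0) against hours in sporulation medium, with 1 open circle per library, lines through the means of 3 libraries and a dotted line at the addition of copper at 2 h. WT (black) rose at 3 h in all 9 panels; SPC24 and NNF1 were highest there, while SPC25 reached 427 to 485 CPM at 7 h.

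In WT, all 9 members rose together in the first hour after copper, and then their courses parted. From 2 to 3 h, 9 of 9 rose, with log2 changes of 1.20 to 2.23 and a median of 1.68, where 65.6% of all genes were called, 36.3% higher and 29.3% lower. The median change of all genes was 0.10. Before copper, from 0 to 2 h, 4 of 9 rose (NDC80, SPC24, MTW1 and SPC105) and none fell, where 56.9% of all genes were called, 26.6% higher and 30.4% lower. From 3 to 5 h, 8 of 9 were called: NDC80 rose and the other 7 fell, where 52.2% of all genes were called, 24.4% higher and 27.8% lower (0 members higher and 8 lower with total counts). From 5 to 6 h, 8 of 9 were called, 7 higher and NNF1 lower, where 75.7% of all genes were called, 33.6% higher and 42.1% lower (2 members higher and 3 lower with total counts). From 6 to 7 h, 6 of 9 were called, with SPC25, MTW1, DSN1 and NSL1 higher and NUF2 and SPC24 lower, where 59.9% of all genes were called, 27.8% higher and 32% lower (1 member higher and 4 lower with total counts). From 7 to 9 h, 7 of 9 fell, where 81.5% of all genes were called, 35.5% higher and 46% lower (2 members higher and 6 lower with total counts). SPC24 and NNF1, which were already low, were the exceptions. Each member also changed over the 7 times in a joint test, 9 of 9 in each strain, where 99.1%, 97.8% and 98.6% of all genes were called in WT, ime4 and pho92. These shares are high throughout, so the counts of members alone say little and the size and timing of each member's change carry the description.

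NDC80, whose product holds microtubules with Nuf2, climbed in WT up to 6 h and fell by 9 h. Its levels in WT were 54.3, 56.4 and 52.1 CPM at 0 h, 165, 127 and 109 at 2 h and 585, 537 and 517 at 3 h. They went on to 991, 728 and 695 CPM at 5 h, 1433, 1490.0 and 1338 at 6 h and 1178, 1282 and 1301 at 7 h, and came down to 371, 344 and 354 at 9 h. No 2 neighbouring times from 0 to 6 h overlapped. The rise came in a log2 change of 1.30 (SE 0.19, adjusted p = 1.09e-07) from 0 to 2 h and of 2.03 (SE 0.19, adjusted p = 1.61e-12) from 2 to 3 h. From 3 to 5 h NDC80 was the only member that rose, by 0.56 (SE 0.19, adjusted p = 0.0111). Without WT replicate 1 it was 0.45 (adjusted p = 0.11) and with total counts 0.30 (adjusted p = 0.175), so the call was lost under each. The next change, 0.82 (SE 0.19, adjusted p = 0.000147) from 5 to 6 h, was -0.03 with total counts. The fall from 7 to 9 h was -1.81 (SE 0.19, adjusted p = 8.58e-12). The highest mean was 26.2 times the lowest, and 18.5 times with total counts, where the highest time was 5 h.

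NUF2, which encodes the partner of Ndc80 at the microtubule, covered a smaller range, its highest mean being 6.43 times its lowest. WT levels were 15.9, 18.3 and 15.3 CPM at 0 h, 23.6, 17.9 and 17.04 at 2 h, 52.8, 59.1 and 50.1 at 3 h and 40.5, 39.3 and 39.98 at 5 h. Later they were 60.9, 57.1 and 52.6 CPM at 6 h, 33.5, 43.2 and 44.4 at 7 h and 10.2, 8.004 and 8.34 at 9 h. The libraries at 3 and 6 h overlapped each other, and the lowest values of the course came at 9 h, below the starting level. The log2 change from 2 to 3 h was 1.47 (SE 0.16, adjusted p = 3.93e-11), and that from 7 to 9 h was -2.18 (SE 0.17, adjusted p = 8.73e-16). Its smaller steps were less certain. The change of -0.43 from 3 to 5 h did not pass with WT replicate 2 left out (-0.32, adjusted p = 0.214) or with replicate 3 left out (-0.45, adjusted p = 0.0672). The change of -0.50 from 6 to 7 h did not pass with WT replicate 1 left out (-0.33, adjusted p = 0.129), and the rise of 0.51 from 5 to 6 h turned to -0.36 with total counts.

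SPC24 and SPC25 encode the 2 subunits of the centromere-facing end, and their mRNAs parted after 3 h. SPC24 went from 7.43, 6.54 and 5.85 CPM at 0 h through 20.9, 13.2 and 10.8 at 2 h to 62.2, 69.3 and 66.5 at 3 h. It then fell to 33.2, 32.7 and 35.5 CPM at 5 h, with 23.6, 32.3 and 24.8 at 6 h, 16.6, 18.7 and 17.7 at 7 h and 15.01, 20.1 and 20.5 at 9 h. No library at another time reached the 3 libraries at 3 h. The log2 changes were 2.15 (SE 0.19, adjusted p = 1.57e-13) from 2 to 3 h and -0.97 (SE 0.18, adjusted p = 1.74e-05) from 3 to 5 h. SPC25 was at 27.2, 29.7 and 21.8 CPM at 0 h, 36.7, 30.8 and 30.1 at 2 h, 84.7, 77.8 and 85.9 at 3 h and 76.7, 43.9 and 47.4 at 5 h. It then climbed to 308, 219 and 167 CPM at 6 h and 485, 433 and 427 at 7 h, and was back at 80.9, 79.4 and 83.1 at 9 h. All 3 libraries at 7 h stood above every library at any other time. The change from 5 to 6 h was 2.05 (SE 0.27, adjusted p = 1.24e-08), and it held with total counts at 1.17. The further rise of 0.96 (SE 0.26, adjusted p = 0.00186) from 6 to 7 h was 0.33 with total counts (adjusted p = 0.142). The fall from 7 to 9 h was -2.47 (SE 0.28, adjusted p = 4.23e-11). From 3 to 5 h SPC25 had a log2 value of -0.56 (adjusted p = 0.0697). It passed the threshold with total counts (-0.83, adjusted p = 0.00059) and with the replicate number as a block (-0.60, adjusted p = 0.0311). It also passed without WT replicate 1 (-0.82, adjusted p = 0.0346) and without pho92 replicate 1 (-0.53, adjusted p = 0.0296).

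The genes of the Mtw1 complex also split. NNF1, like SPC24, was highest at 3 h: its WT libraries stood at 30.6, 19.4 and 17.4 CPM at 2 h, 71.97, 72.3 and 71.8 at 3 h, 31.1, 35.2 and 39.5 at 5 h and 12.99, 17.7 and 18.1 at 6 h. Its values at 0, 7 and 9 h lay between 12.7 and 21.02 CPM. NNF1 was thus raised at 3 and 5 h, and it was the only member called lower from 5 to 6 h with TMM scaling, with a log2 change of -1.11 (SE 0.26, adjusted p = 0.000164). With total counts that change was -1.96, and SPC24 (-1.19, adjusted p = 9.32e-06) and NUF2 (-0.36, adjusted p = 0.0469) were called lower too. With TMM scaling SPC24, whose 6 h libraries all lay below its 5 h libraries, had a value of -0.33 and was not called. DSN1, whose product is phosphorylated by the Aurora kinase to promote joining with the inner kinetochore, was highest at 7 h with TMM scaling and at 3 h with total counts, whereas SPC25 was highest at 7 h with both. It had 30.6, 26.6 and 27.4 CPM at 2 h, 84.7, 90.2 and 80.5 at 3 h, 52.02, 44.5 and 43.4 at 5 h, 180.2, 155 and 112 at 6 h, 221, 266 and 284 at 7 h and 88.2, 110.4 and 104 at 9 h. The level therefore rose, fell and rose again, with log2 changes of 1.60, -0.87 and 1.68 (SE 0.20, adjusted p = 1.25e-09), the last being 0.79 with total counts. The step from 6 to 7 h, 0.79 (SE 0.20, adjusted p = 0.000678), did not pass with WT replicate 3 left out (0.57, adjusted p = 0.0605) or with total counts (0.15, adjusted p = 0.392).

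MTW1, which gives the complex its name, had a similar pair of peaks, the 7 h one being the higher with TMM scaling and the 3 h one with total counts. Its WT levels were 39.5, 25.9 and 22.1 CPM at 2 h, 116, 139 and 155 at 3 h, 71.4, 62.96 and 66.8 at 5 h, 148, 127 and 100.5 at 6 h, 162, 174 and 189.8 at 7 h and 47.2, 49.4 and 56.9 at 9 h. The first rise was 2.23 (SE 0.22, adjusted p = 2.33e-12) on the log2 scale and the fall after it -1.03 (SE 0.21, adjusted p = 5.45e-05). The later rise, 0.90 (SE 0.21, adjusted p = 0.000158), was 0.02 with total counts. Smaller MTW1 calls were less certain: the change of 0.68 from 0 to 2 h was lost without WT replicate 1 (0.38, adjusted p = 0.216). The change of 0.48 from 6 to 7 h was lost without WT replicate 2 (0.50, adjusted p = 0.129), without WT replicate 3 (0.31, adjusted p = 0.324) and without ime4 replicate 1 (0.48, adjusted p = 0.0599), and it was -0.16 with total counts. NSL1, another subunit of the complex, stood at 22.7, 17.2 and 18.7 CPM at 2 h, 43.8, 43.8 and 46.7 at 3 h, 17.97, 14.2 and 17.2 at 5 h, 36.9, 24.7 and 20.1 at 6 h, 67.7, 60.03 and 66.3 at 7 h and 35.05, 38.4 and 43.9 at 9 h. Its 5 h libraries were below its 0 h libraries, which had 21.8 to 26.6 CPM. The fall from 3 to 5 h was -1.44 (SE 0.18, adjusted p = 7.38e-09) and the rise from 6 to 7 h was 1.26 (SE 0.18, adjusted p = 1.49e-07), which was 0.62 with total counts. The NSL1 changes of 0.72 from 5 to 6 h and -0.73 from 7 to 9 h turned to -0.17 and 0.26 with total counts.

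SPC105 followed MTW1. It had 38.2, 35.6 and 32.4 CPM in WT at 0 h, 78.00, 54.00 and 49.1 at 2 h, 220.5, 243 and 213 at 3 h and 130.3, 122 and 126 at 5 h. Later levels were 277, 225 and 180.1 CPM at 6 h, 252, 296 and 309 at 7 h and 75.7, 84.5 and 83.3 at 9 h. The 6 and 7 h libraries overlapped, and all stood above those at 5 and 9 h. The change from 2 to 3 h was 1.90 (SE 0.18, adjusted p = 9.38e-13), that from 3 to 5 h -0.84 (SE 0.17, adjusted p = 7.40e-05) and that from 7 to 9 h -1.81 (SE 0.18, adjusted p = 8.89e-13). The rise of 0.85 from 5 to 6 h was -0.03 with total counts.

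Ratios between partner genes do not depend on how libraries are scaled, and they show the parting of the courses directly. Per unit of gene length (CPM per kb), the ratio of NDC80 to NUF2 in WT was 2.23, 2.02 and 2.22 at 0 h, 7.24, 5.93 and 6.74 at 3 h, 15.3, 17.03 and 16.6 at 6 h and 23.7, 28.1 and 27.8 at 9 h. Among these times it was higher at each later one, and none of these groups overlapped. The libraries at 5 h, at 11.35 to 15.99, overlapped those at 6 h. The ratio of SPC25 to SPC24 was 3.53, 4.38 and 3.59 at 0 h, 1.31, 1.08 and 1.25 at 3 h, 28.1, 22.3 and 23.3 at 7 h and 5.19, 3.81 and 3.90 at 9 h. The partners were thus close to equal per length at 3 h and far apart at 7 h. The ratio of DSN1 to NNF1 was 0.417, 0.442 and 0.397 at 3 h and 5.88, 5.75 and 7.66 at 7 h, so that the order of the pair turned. No exact permutation test of 3 against 3 libraries can go below p = 0.10, so these ratios are given without a test.

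**Figure D2:**
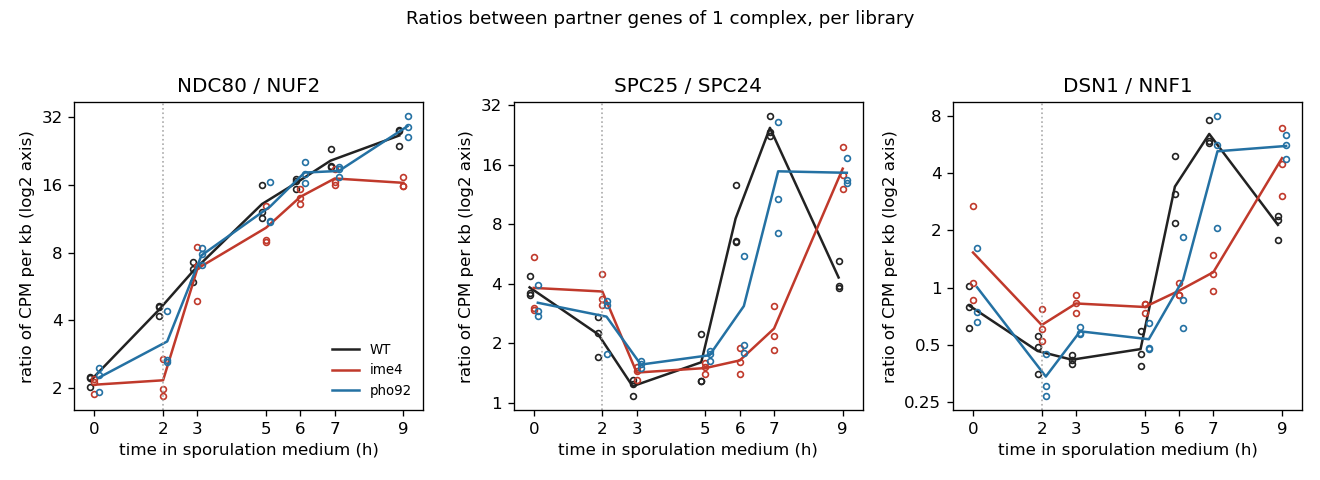
Ratio of the CPM per kb of NDC80 to NUF2, SPC25 to SPC24 and DSN1 to NNF1 in each library (circles; lines join the means of 3; log2 axis) against hours in sporulation medium for WT, ime4 and pho92. The SPC25 to SPC24 ratio stayed at 1.40 to 1.90 in ime4 at 6 h, when WT was at 6.49 to 12.6.

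The order of the members per length changed accordingly. In WT at 0 h the highest was SPC25 at 39.4 ± 6.08 CPM per kb (SD, n = 3), then NSL1, NNF1 and NDC80, each overlapping the next, and the lowest was SPC24 at 10.3 ± 1.23. At 3 h NDC80 led with 263 ± 16.9 CPM per kb, followed by MTW1 with 157 ± 22.9; SPC25 and NNF1 overlapped, and NUF2 was lowest with 39.8 ± 3.38. At 7 h SPC25 led with 674 ± 47.5 CPM per kb, above NDC80 with 604 ± 31.8. NUF2, SPC24 and NNF1 came last at 7 h with 29.8 ± 4.42, 27.6 ± 1.60 and 23.6 ± 3.04, and neighbours in that trio overlapped.

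In the ime4 mutant all members rose at 3 h, as in WT. A later rise was called between 7 and 9 h. It was called for SPC25 and MTW1 with TMM scaling and total counts alike, and for other members with TMM scaling but not with total counts. From 2 to 3 h, 9 of 9 members rose, with a median log2 change of 1.43, where 57.9% of all genes were called, 30.5% higher and 27.4% lower. Without ime4 replicate 3, NUF2 (0.36, adjusted p = 0.0872), SPC25 (0.47, adjusted p = 0.243), NSL1 (0.40, adjusted p = 0.134) and NNF1 (0.69, adjusted p = 0.0504) lost the call, and SPC25 also did without ime4 replicate 1 (0.74, adjusted p = 0.0678). Before copper, from 0 to 2 h, 1 of 9 was called (DSN1, lower, -0.65), where 54.1% of all genes were called, 25.9% higher and 28.2% lower (5 members higher and 1 lower with total counts). That call was lost without ime4 replicate 2 (-0.49, adjusted p = 0.115), and 4 of 9 were called without WT replicate 1 or without pho92 replicate 1, whose libraries are not among those compared. From 3 to 5 h, 2 of 9 fell, where 24% of all genes were called, 10.8% higher and 13.1% lower: MTW1, with a log2 change of -1.19 (SE 0.21, adjusted p = 3.13e-05), and SPC24, whose change of -0.49 was lost in 5 of the 9 fits that left out 1 replicate of a strain (adjusted p up to 0.47, without ime4 replicate 3). From 5 to 6 h, 0 of 9 were called, as were 0 of all 5822 genes in edgeR. At an unadjusted p under 0.05 there were 337 genes in edgeR, and DESeq2 called 43. Of the members, NDC80 alone passed at the unadjusted level, and DESeq2 called 0. From 6 to 7 h, 0 of 9 were called by edgeR or DESeq2 and 0 had an unadjusted p under 0.05, where 9.22% of all genes were called, 6.7% higher and 2.52% lower.

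From 7 to 9 h, 8 of 9 members of the ime4 strain were called, 6 higher and 2 lower, where 75.4% of all genes were called, 32.8% higher and 42.6% lower (2 members higher and 4 lower with total counts). SPC25 went from 44.2, 46.5 and 64.2 CPM to 222, 177 and 262, a log2 change of 2.10 (SE 0.27, adjusted p = 1.16e-08), and MTW1 from 34.9, 28.9 and 45.3 CPM to 129, 105 and 161, a change of 1.85 (SE 0.21, adjusted p = 7.99e-10). Both kept their direction with total counts, at 1.13 and 0.89. NNF1 fell from 40.4, 30.2 and 31.4 CPM to 16.3, 19.8 and 12.02, and SPC24 from 23.01, 20.5 and 20.1 CPM to 15.1, 14.2 and 12.9. The rises of NUF2 (0.41), DSN1 (0.83), NSL1 (0.82) and SPC105 (0.88) turned to -0.52, -0.13, -0.15 and -0.10 with total counts. The NUF2 call was also lost without ime4 replicate 1 (0.37, adjusted p = 0.0921) and without replicate 2 (0.29, adjusted p = 0.19). NDC80, at 809, 598 and 884 CPM at 7 h and 958, 921 and 1034 at 9 h, had a value of 0.35 (adjusted p = 0.0885). It was past the threshold with RLE factors in edgeR (0.46, adjusted p = 0.0333), in DESeq2 (0.46, adjusted p = 0.0248), without pho92 replicate 1 (0.39, adjusted p = 0.0247) and without pho92 replicate 3 (0.38, adjusted p = 0.0491), and it was -0.60 with total counts.

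Against WT at the same time, most called members were lower in ime4 from 2 to 7 h with TMM scaling. With total counts more were called higher than lower at 6 and 7 h, but that scaling also raised the median of all genes at both times. The share of all genes called with it is not given, so no direction of the members is drawn from it. All 6 members called at 9 h with TMM scaling were higher. At 0 h, 0 of 9 were called, where 0.258% of all genes were called, 0.155% higher and 0.103% lower, and DESeq2 called 0 of 9; no member had an unadjusted p under 0.05. At 2 h, 2 of 9 were lower, where 12.4% of all genes were called, 5.67% higher and 6.7% lower. NDC80 had 68.1, 62.2 and 81.4 CPM in ime4 against 165, 127 and 109 in WT, a log2 difference of -0.92 (SE 0.19, adjusted p = 0.000537). SPC24 differed by -0.65, a call that did not pass with WT replicate 1 left out (-0.32, adjusted p = 0.366) or with ime4 replicate 1 left out (-0.54, adjusted p = 0.133). At 3 h, 7 of 9 were lower and none higher, where 30.6% of all genes were called, 14.8% higher and 15.9% lower. NNF1 had 28.6, 27.5 and 52.2 CPM against 71.97, 72.3 and 71.8, a difference of -0.99 (SE 0.25, adjusted p = 0.00193), and SPC24 had 36.5, 30.9 and 48.4 against 62.2, 69.3 and 66.5, a difference of -0.77 (SE 0.18, adjusted p = 0.00094). Neither gene overlapped between the strains. The calls of MTW1 (-0.64) and NSL1 (-0.47) at 3 h were lost in 3 and 5 of the 9 fits without 1 replicate, with adjusted p up to 0.12 (without ime4 replicate 2) and 0.16 (without ime4 replicate 1).

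At 5 h, 5 of 9 differed between ime4 and WT, where 49.5% of all genes were called, 23.4% higher and 26% lower. NDC80, NUF2 and MTW1 were lower, while DSN1 and NSL1 were higher. DSN1 had 108, 97.7 and 101 CPM in ime4 against 52.02, 44.5 and 43.4 in WT, a log2 difference of 1.13 (SE 0.20, adjusted p = 5.89e-06). DSN1 had fallen from 3 to 5 h in WT and was not called in that step in ime4. The NSL1 difference of 0.57 was lost without WT replicate 2 (0.46, adjusted p = 0.0725). At 6 h, 7 of 9 differed, 6 lower and 1 higher, where 78.1% of all genes were called, 43.6% higher and 34.5% lower (4 members higher and 2 lower with total counts). SPC25 had 47.1, 36.2 and 53.1 CPM against 308, 219 and 167, a difference of -2.35 (SE 0.28, adjusted p = 2.21e-10), and MTW1 had 32.3, 31.3 and 36.01 against 148, 127 and 100.5, a difference of -1.92 (SE 0.21, adjusted p = 5.23e-11). NNF1 was the exception, with 42.97, 36.8 and 40.2 CPM against 12.99, 17.7 and 18.1, a difference of 1.29 (SE 0.26, adjusted p = 1.63e-05). These 3 kept their direction with total counts (-1.15, -0.74 and 2.42), whereas NUF2 (-1.06), DSN1 (-0.45) and SPC105 (-0.995) turned to 0.10, 0.73 and 0.18. The DSN1 call was lost in 4 of the 9 fits without 1 replicate, most of all without WT replicate 1 (-0.30, adjusted p = 0.222).

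At 7 h, 8 of 9 differed between ime4 and WT, 7 lower and NNF1 higher, where 82.4% of all genes were called, 44.9% higher and 37.5% lower (6 members higher and 2 lower with total counts). SPC25 had the lowest log2 difference of any member at any time, with 44.2, 46.5 and 64.2 CPM in ime4 against 485, 433 and 427 in WT, a log2 difference of -3.12 (SE 0.28, adjusted p = 1.12e-13). MTW1 differed by -2.27 (SE 0.22, adjusted p = 4.21e-13). With total counts these were -1.36 and -0.51, and NNF1, at 1.26 with TMM scaling, was 3.03. The other lower members turned direction with total counts: NDC80 from -0.71 to 1.05, NUF2 from -0.46 to 1.30, DSN1 from -1.17 to 0.59, NSL1 from -1.69 to 0.08 and SPC105 from -1.23 to 0.54. NUF2 was also lost without ime4 replicate 2 (-0.28, adjusted p = 0.164). That scaling moved the median of all genes by 1.78 at this time, and the scale-free ratio of SPC25 to SPC24 was 1.85, 2.19 and 3.08 in ime4 against 28.1, 22.3 and 23.3 in WT. At 9 h, 6 of 9 were higher in ime4 and none lower, where 80.2% of all genes were called, 46.9% higher and 33.3% lower (6 members higher and 1 lower with total counts). NUF2 had 39.5, 38.1 and 38.8 CPM against 10.2, 8.004 and 8.34, a difference of 2.13 (SE 0.17, adjusted p = 1.56e-15), and NDC80 had 958, 921 and 1034 against 371, 344 and 354, a difference of 1.45 (SE 0.19, adjusted p = 3.33e-09). No called member at 9 h turned direction with total counts or lost its call without 1 replicate.

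**Figure D3:**
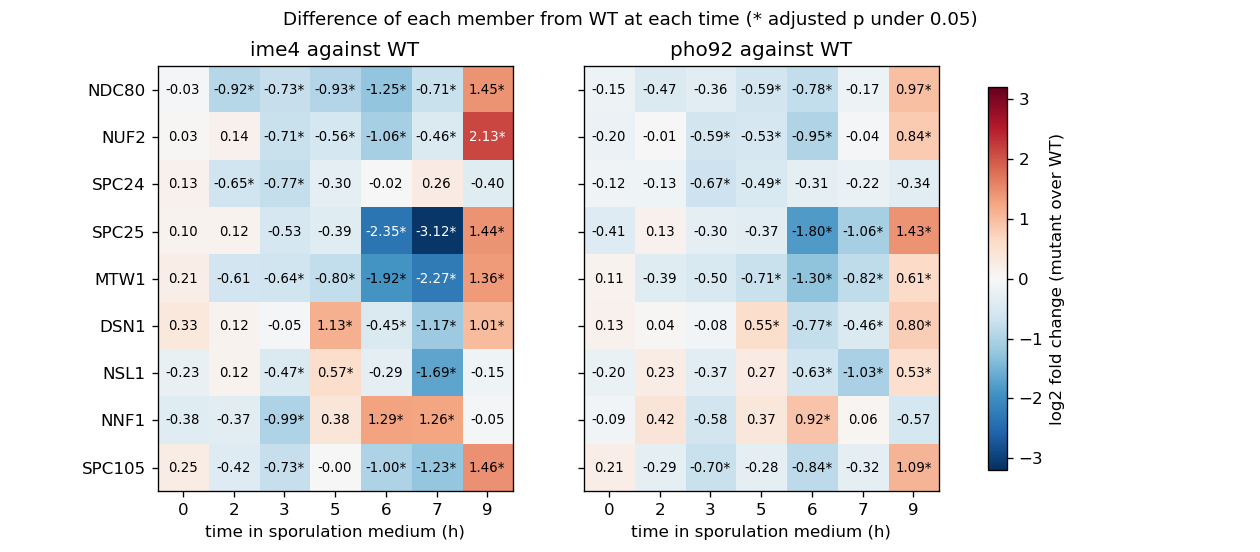
Log2 fold change of each member in ime4 (left) and pho92 (right) over WT at each of 7 times; blue is lower and red higher in the mutant, and a star marks an adjusted p under 0.05 in edgeR. SPC25 at 7 h in ime4 is the lowest cell at -3.12, and NNF1 is red at 6 h in both mutants while most members are blue.

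In the pho92 mutant all members also rose at 3 h. A later rise was called between 6 and 7 h. It was called for SPC25 and DSN1 with TMM scaling and total counts alike, and for other members with TMM scaling but not with total counts. From 0 to 2 h, 6 of 9 members were called, 5 higher and DSN1 lower, where 56.3% of all genes were called, 29.4% higher and 26.9% lower (8 members higher and 0 lower with total counts). Replicate 1 stood out at 2 h: NDC80 had 138, 69.7 and 82.2 CPM there, and its change of 0.99 was 0.60 (adjusted p = 0.0107) without that replicate. Without pho92 replicate 1, SPC24 went from 1.16 to 0.70 (adjusted p = 0.00711), DSN1 from -0.53 to -0.83 (adjusted p = 0.000818), and NUF2 from 0.43 to 0.33 (adjusted p = 0.159). DSN1 was lost without replicate 2 (-0.45, adjusted p = 0.144) and without replicate 3 (-0.25, adjusted p = 0.333), and NNF1 (0.87) without replicate 3 (0.63, adjusted p = 0.0668). From 2 to 3 h, 9 of 9 rose, with a median of 1.47, where 56.9% of all genes were called, 30.4% higher and 26.5% lower. NNF1 rose by 0.67 in that step, a call that was lost without pho92 replicate 1 (0.54, adjusted p = 0.134) and without replicate 2 (0.65, adjusted p = 0.104). From 3 to 5 h, 3 of 9 fell (SPC24, MTW1 and NSL1), where 32.3% of all genes were called, 14.9% higher and 17.4% lower, and without ime4 replicate 2 the count called was 6. From 5 to 6 h, 1 of 9 rose, where 17.4% of all genes were called, 13.3% higher and 4.07% lower (0 members higher and 0 lower with total counts). That was NDC80 (0.63), lost without pho92 replicate 1 (0.56, adjusted p = 0.0962) and without replicate 2 (0.61, adjusted p = 0.0911).

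From 6 to 7 h in pho92, 9 of 9 members were called, 7 higher and SPC24 and NNF1 lower, where 64.8% of all genes were called, 31% higher and 33.8% lower (2 members higher and 2 lower with total counts). SPC25 went from 111, 48.1 and 40.5 CPM to 344, 167 and 135, a log2 change of 1.70 (SE 0.27, adjusted p = 1.84e-06), and NNF1 from 23.01, 31.4 and 38.1 CPM to 10.4, 12.7 and 21.1, a change of -1.06 (SE 0.26, adjusted p = 0.000509). Replicate 1 had the most SPC25 and the least NNF1 at each of these times. DSN1 went from 119, 76.1 and 66.2 CPM to 234, 202 and 123, a change of 1.10 (SE 0.20, adjusted p = 1.24e-05). NSL1 rose by 0.85, or by 0.48 (adjusted p = 0.0395) without replicate 1. The calls of NDC80 (0.43), NUF2 (0.42) and SPC24 (-0.51) were less certain. NDC80 was lost in 5 of the 9 fits without 1 replicate (adjusted p up to 0.286, without pho92 replicate 2), and was 0.65 without replicate 1. NUF2 was lost without pho92 replicate 2 (0.32, adjusted p = 0.182) and replicate 3 (0.40, adjusted p = 0.0553), and SPC24 without replicate 1 (-0.44, adjusted p = 0.065) and replicate 2 (-0.44, adjusted p = 0.104). NDC80 and NUF2 turned to -0.24 and -0.26 with total counts. In a fit on the 6 libraries of these 2 groups alone, 0 of 9 members passed, with SPC25 at 1.72 (adjusted p = 0.0578). From 7 to 9 h, 4 of 9 were called, with NSL1 higher and NDC80, NUF2 and SPC105 lower, where 62.2% of all genes were called, 26.1% higher and 36.1% lower. The NDC80 call (-0.67) was lost without pho92 replicate 2 (-0.53, adjusted p = 0.052), and that of SPC105 (-0.41) in 3 of the 9 fits without 1 replicate (-0.25, adjusted p = 0.265, without pho92 replicate 1; -0.66, still called, without replicate 3).

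Against WT, members were first called in pho92 at 3 h. At 0 h, 0 of 9 members were called, where 18.1% of all genes were called, 10.9% higher and 7.15% lower, and at 2 h again 0 of 9, where 12.4% of all genes were called, 8.47% higher and 3.9% lower. At an unadjusted p under 0.05, 0 members passed at 0 h and 1 at 2 h (NDC80), and DESeq2 called 0 at each time. Without pho92 replicate 1, 3 of 9 were called at 2 h. At 3 h, 3 of 9 were lower (NUF2, SPC24 and SPC105), where 17.9% of all genes were called, 10.3% higher and 7.64% lower. DESeq2 and the authors' deposited table each called 5 members, and a fit on the compared libraries alone called 7. No share of all genes is given for these settings, so the larger counts are not read as a stronger difference of the members. For 7 of 9 members all pho92 libraries lay below all WT libraries. The share of all genes that did so was not counted, so no weight is put on that number. SPC105 had 139, 153 and 123 CPM against 220.5, 243 and 213 in WT, a difference of -0.70 (SE 0.17, adjusted p = 0.00345). NUF2 (-0.59) was lost without WT replicate 2 (-0.53, adjusted p = 0.0671), as was SPC24 (-0.67; -0.64, adjusted p = 0.0519), which was also lost without pho92 replicate 3 (-0.59, adjusted p = 0.0575). At 5 h, 5 of 9 differed, 4 lower and DSN1 higher, where 33.6% of all genes were called, 17.3% higher and 16.3% lower (2 members higher and 1 lower with total counts). MTW1 had 43.2, 40.8 and 39.3 CPM against 71.4, 62.96 and 66.8, a difference of -0.71 (SE 0.21, adjusted p = 0.00713). The calls of NDC80 (-0.59), SPC24 (-0.49) and DSN1 (0.55) at 5 h were lost in 3, 4 and 4 of the 9 fits without 1 replicate, with adjusted p up to 0.142 (without WT replicate 1), 0.10 (without pho92 replicate 3) and 0.117 (without WT replicate 2).

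At 6 h, 8 of 9 members differed between pho92 and WT, 7 lower and NNF1 higher, where 70.7% of all genes were called, 37.8% higher and 33% lower (2 members higher and 2 lower with total counts). SPC25 had 111, 48.1 and 40.5 CPM in pho92 against 308, 219 and 167, a log2 difference of -1.80 (SE 0.27, adjusted p = 2.25e-07), and NNF1 had 23.01, 31.4 and 38.1 against 12.99, 17.7 and 18.1, a difference of 0.92 (SE 0.26, adjusted p = 0.00159). These kept their direction with total counts (-0.99 and 1.78), as did MTW1 (-1.30 and -0.46), while NDC80 (-0.78), DSN1 (-0.77), NSL1 (-0.63) and SPC105 (-0.84) turned to 0.03, 0.06, 0.26 and 0.01. NSL1 was also lost without WT replicate 1 (-0.35, adjusted p = 0.0975). At 7 h, 4 of 9 were lower, where 62.8% of all genes were called, 34.7% higher and 28.1% lower (5 members higher and 0 lower with total counts): SPC25 with a difference of -1.06 (SE 0.27, adjusted p = 0.000604), MTW1 with -0.82 (SE 0.21, adjusted p = 0.000714), NSL1 with -1.03 (SE 0.18, adjusted p = 4.21e-06) and DSN1 with -0.46. DSN1 was lost in 5 of the 9 fits without 1 replicate (-0.23, adjusted p = 0.313, without pho92 replicate 3) and turned to 0.30 with total counts, under which none of these 4 was called. At 9 h, 7 of 9 were higher and none lower, where 57.1% of all genes were called, 32.4% higher and 24.8% lower (3 members higher and 2 lower with total counts). SPC25 had 194, 229.6 and 231 CPM against 80.9, 79.4 and 83.1, a difference of 1.43 (SE 0.27, adjusted p = 1.71e-05), and SPC105 had 166, 173 and 179 against 75.7, 84.5 and 83.3, a difference of 1.09 (SE 0.18, adjusted p = 1.20e-06). MTW1 (0.61) was lost without ime4 replicate 2 (0.42, adjusted p = 0.0851) and without pho92 replicate 3 (0.47, adjusted p = 0.0679), and NSL1 (0.53) without ime4 replicate 2 (0.35, adjusted p = 0.092) and without pho92 replicate 2 (0.41, adjusted p = 0.0944).

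Both mutants were compared with the same WT libraries, so their differences are not independent of each other. Set side by side, SPC25 at 7 h differed from WT by -3.12 in ime4 and by -1.06 in pho92, and NNF1 at 6 h by 1.29 and 0.92. NDT80 at 7 h was 951, 583 and 1495 CPM in ime4 and 3886, 3919 and 2305 in pho92 against 6068, 6220.0 and 6518 in WT; its part in the members' differences was not tested. SPC24 was not called by edgeR with TMM scaling at 6, 7 or 9 h in either mutant, with log2 differences of -0.02, 0.26 and -0.40 in ime4 and -0.31, -0.22 and -0.34 in pho92. With total counts it was called in all 6, at 1.136, 2.04 and -0.54 in ime4 and 0.54, 0.65 and -0.78 in pho92. DESeq2 called it in pho92 at 6 h (-0.40, adjusted p = 0.0478). At 9 h the compared libraries alone gave -0.68 in ime4 (adjusted p = 0.00536), and without ime4 replicate 2 it was -0.52 in each mutant (adjusted p = 0.0314 in ime4 and 0.0214 in pho92). In the authors' deposited table, 68 of the 126 member values in the 14 comparisons with WT were called, 19 higher and 49 lower. All 62 calls made here were among them and had the same direction in the authors' deposited table. The share of all genes called there was not counted, so the number of members called says little by itself.

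By the correlation of log2 CPM with NDC80 over the 21 group means, the 5 genes most like it of 5821 were YKR005C (r = 0.993), IME2 (0.993), YBR184W (0.988), SLZ1 (0.986) and CIK1 (0.985). IME2 encodes a kinase of early meiosis and CIK1 a partner of the motor Kar3. None of the other members was among them. SPC105 was closest at rank 57 (r = 0.941), then MTW1 at rank 383 (0.829), DSN1 at rank 400 (0.826) and SPC25 at rank 569 (0.785). SPC24 and NUF2 stood at ranks 1049 and 1065, NSL1 at rank 1966 and NNF1 at rank 2394 (r = 0.184). Among all pairs of members the lowest r was that of SPC25 with NNF1, at -0.309. These values describe 21 group means that share strains, times and library scaling. With Spearman's measure 2 of these 5 genes were among the top 5, and with total counts all 5 were.

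Most genes of the other kinetochore lists were also higher at 3 h than at 2 h in WT, a step in which 65.6% of all genes were called, 36.3% higher and 29.3% lower. The Dam1 complex, a ring that couples kinetochores to microtubules, was taken with KRE28, whose product binds Spc105. From 2 to 3 h in WT, 10 of these 11 genes rose and none fell, with a median log2 change of 1.10. DUO1 rose by 2.61, SPC34 by 1.87, DAM1 by 1.65 and SPC19 by 0.94. Of 19 inner kinetochore genes, 16 rose and 1 fell, with a median of 0.92, led by MIF2 (2.71) and OKP1 (1.96), whose products contact the centromere. Of 12 genes of the spindle checkpoint and the chromosomal passenger complex, 10 rose and none fell, with a median of 1.36. IPL1, the Aurora kinase that phosphorylates the outer kinetochore, rose by 3.49. Of 5 genes of the centromere-binding CBF3 list, 3 rose, with a median of 0.55, and of 5 monopolin and meiosis I kinetochore genes 4 rose, with a median of 1.20, led by MAM1 (3.43). Of 14 spindle microtubule genes, 13 rose, with a median of 2.03. The 9 members had a median of 1.68 in this step and all genes 0.10. From 3 to 5 h in WT, 0 of the 11 Dam1-list genes were called higher and 7 lower, with a median of -0.76, and 1 of 19 inner kinetochore genes was higher and 13 lower, with a median of -0.74, beside 52.2% of all genes called, 24.4% higher and 27.8% lower.

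At 7 h in ime4 against WT, where 44.9% of all genes were called higher and 37.5% lower, 3 Dam1-list genes were higher and 5 lower, with a median of -0.37, and 12 inner kinetochore genes were higher and 6 lower, with a median of 0.63. With total counts these became 8 higher and 1 lower, and 15 higher and none lower, so no direction is drawn for either list at that time. DAD3, of the Dam1 complex, was the lowest at -3.23, close to the -3.12 of SPC25. At 9 h, where 46.9% of all genes were called higher and 33.3% lower, 8 Dam1-list genes were higher in ime4 and 3 lower (median 1.57), as were 11 and 3 inner kinetochore genes (median 0.77), and both counts were the same with total counts. The members had a median of 1.36 at 9 h, and all genes 0.31.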

How the data were processed

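The deposited table gives, per the file headers, raw read counts of 6088 genes in 63 libraries, a gene length in bases, and the authors' own log2 fold changes with their adjusted p-values for both mutants over WT at 7 times. Per the labels' protocols, libraries were made with a stranded poly(A) kit and read as single reads. The submitters' processing notes name bcl2fastq 2.17.1.14, TopHat2 2.0.14, Bowtie, HTSeq 0.6.1, R 3.5.1 and DESeq2 1.22.1. Neither the genome build nor the strand setting of the counting is given in the sources used here; S288C positions in the table equalled R64 starts for 99.93% of 5575 matched genes.

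From the deposited counts, edgeR 4.0.16 in R 4.3.3 was fitted to all 63 libraries with 1 mean per group of 3 (21 groups), TMM factors (0.387 to 1.53) and the quasi-likelihood test. Of the genes, 5822 passed filterByExpr (minimum count 10), among them all 9 members, and 266 did not. There were 37 tests, and p-values were adjusted by Benjamini and Hochberg over all genes tested in each; called means an adjusted p under 0.05. CPM per kb divides by the deposited gene length. The fit's scripts were tested on counts simulated for ime4 against WT at 6 h, with a small part of the genes changed. Such data hold no shift of most genes, so that test cannot decide between the ways of scaling. Alternatives were total counts or RLE factors, DESeq2 1.42.0, no filter, the compared libraries alone, a replicate block and leaving out each replicate of a strain. Named genes are all members, IME4, PHO92, IME1 and NDT80 as checks, the 5 genes most like NDC80, and up to 4 genes of another list with the smallest p in the comparison described. The replicates are biological per the labels. Members and lists were chosen with earlier results of these data known.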

Additional observations from a re-analysis of the deposited data

Results flagged for a closer look

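The difference between a mutant and WT varied over the 7 times, by a joint test of the 6 interaction terms in edgeR. Such a difference was found for 9 of 9 members in ime4 (adjusted p from 4.72e-16 to 0.00159, where 96.3% of all genes were called). In pho92 it was found for 8 of 9 members (adjusted p from 3.13e-08 to 0.00128, where 90.6% were called). Both member counts are near the share of all genes, so they do not set the members apart. The exception in pho92 was SPC24 (adjusted p = 0.353). In ime4, SPC25 went from -3.12 relative to WT at 7 h to 1.44 at 9 h on the log2 scale, and in pho92 from -1.06 to 1.43.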

How the results depend on the processing

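The 156 log2 values of called members were refitted under 15 other settings, giving 2340 values. Of these, 2187 kept their direction and call, 128 lost the call and 25 turned direction, all 25 with scaling by total counts alone. DESeq2, no filter on low counts and the replicate block kept all 156 calls, and RLE factors lost 1 (DSN1 in pho92 against WT at 5 h). In the 9 fits that left out 1 replicate of 1 strain at all times, 117 of the 156 calls were kept in every fit.

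With total counts, the median of all genes moved by -0.86 from 5 to 6 h in WT, by 1.78 in ime4 against WT at 7 h (at 6 h it went from 0.208 to 1.352), and by 0.85 and 0.84 in pho92 against WT at 6 and 7 h. The members called moved by over 1.5 times with total counts in these comparisons: 5 in place of 8 in WT from 5 to 6 h, 6 in place of 1 in ime4 from 0 to 2 h, 6 in place of 3 in pho92 from 3 to 5 h, 0 in place of 1 from 5 to 6 h and 4 in place of 9 from 6 to 7 h, 1 in place of 2 in ime4 against WT at 2 h, and 3 in place of 5 and 4 in place of 8 in pho92 against WT at 5 and 6 h. Values that turned direction with total counts, those of SPC24 and of NDC80 in ime4 from 7 to 9 h not being called with TMM scaling, were, in WT from 5 to 6 h, NDC80 -0.0303, NUF2 -0.36, NSL1 -0.17 and SPC105 -0.0329, then MTW1 -0.16 from 6 to 7 h and NSL1 0.26 from 7 to 9 h. In ime4 from 7 to 9 h they were NDC80 -0.60, NUF2 -0.52, DSN1 -0.13, NSL1 -0.15 and SPC105 -0.10, and in pho92 from 6 to 7 h NDC80 -0.24 and NUF2 -0.26. In ime4 against WT they were NUF2 0.10, SPC24 1.136, DSN1 0.73 and SPC105 0.18 at 6 h, and NDC80 1.05, NUF2 1.30, DSN1 0.59, NSL1 0.0793 and SPC105 0.54 at 7 h. In pho92 against WT they were NDC80 0.0319, SPC24 0.54, DSN1 0.0586, NSL1 0.26 and SPC105 0.0059 at 6 h, and SPC24 0.65 and DSN1 0.30 at 7 h. SPC24 in ime4 against WT at 6 h, at -0.02 in all libraries, was 0.13 without WT replicate 2. The time of the highest mean was the same with total counts in 9 of the 27 courses of a member in a strain.

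In fits on the compared libraries alone, the calls were 2 in place of 1 in ime4 from 0 to 2 h, 6 in place of 3, 0 in place of 1, 0 in place of 9 and 2 in place of 4 in pho92 from 3 to 5, 5 to 6, 6 to 7 and 7 to 9 h, 1 in place of 2 in ime4 against WT at 2 h, and 7 in place of 3 in pho92 against WT at 3 h; these fits have fewer libraries to estimate the spread. DESeq2 called 5 in place of 3 in pho92 against WT at 3 h. Without 1 replicate, the calls ranged from 1 to 4, 5 to 9 and 1 to 2 in ime4 from 0 to 2, 2 to 3 and 3 to 5 h, from 3 to 6, 0 to 2 and 2 to 5 in pho92 from 3 to 5, 5 to 6 and 7 to 9 h, from 1 to 3 in ime4 against WT at 2 h, and from 0 to 3, 1 to 4 and 2 to 5 in pho92 against WT at 2, 3 and 5 h. The cause of the other moves was not tested. Replicate numbers did not pair the libraries throughout: 16 of 42 same-numbered pairs of a mutant and a WT library had deviations correlated above 0.1 (range -0.592 to 0.694), and 14 of 42 correlated best with their own number. Between neighbouring times of a strain, 35 of 54 pairs were above 0.1. All 3 pairs were above it in pho92 against WT at 5 and 6 h, in each ime4 step from 2 h on, in WT from 2 to 3 and 5 to 6 h, and in pho92 from 5 to 6 h, and there the block changed no count of members called. The block gives each replicate number 1 term shared by all 3 strains. It therefore cannot take up a likeness between times within 1 strain, and its unchanged counts do not decide whether such pairing matters. With the replicate number as a block, the calls in ime4 from 0 to 2 h were 2 in place of 1, and no other count of members moved by over 1.5 times. Depth did not keep any member from being tested, since all 9 passed the filter on low counts.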
